A study of Mus musculus with 12 samples.

Results

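IFN-γ was compared directly with CX3CL1 in CT26 cells, a mouse colon carcinoma cell line, by RNA sequencing. The libraries were chosen by their treatment label, which gave 3 libraries of CT26 cells treated with IFN-γ and 3 of CT26 cells treated with CX3CL1, so 6 of the 12 libraries of the series. The other libraries were CT26 cells without treatment and CT26 cells given IFN-γ + CX3CL1, with 3 biological replicates in each group. Per the study's methods and legends, CX3CL1 was used at 2 µg/ml and IFN-γ at 100 ng/ml, both for 8 hours. The labels name IFN-γ alone for the second stimulus, while the study's text on these cultures also speaks of TNF-α, so the agent is called IFN-γ here as the labels have it. A single cell line, 1 dose of each agent and 1 time point limit what the comparison covers, and the 2 agents were not matched in dose. The comparison asks which genes separate the response of a tumor cell to an interferon from its response to a chemokine.

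IFN-γ binds the receptor chains IFNGR1 and IFNGR2, and the kinases JAK1 and JAK2 then activate transcription factors of the STAT family. STAT dimers bind the GAS element (gamma-activated site) of promoters, and among the genes they turn on is IRF1, a transcription factor that, like its relatives, binds the ISRE (interferon-stimulated response element). CX3CL1, or fractalkine, is a chemokine whose receptor CX3CR1 is a G protein-coupled receptor known for guiding monocytes and other leukocytes. Many chemokine genes carry kB sites, which bind the NF-kB family of transcription factors, and CXCL1, CXCL3 and CXCL5 attract neutrophils through the receptor CXCR2, while CXCL9, CXCL10 and CXCL11 attract T cells through CXCR3.

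The deposited values are TPM, a unit in which each gene's share is corrected for its length and each library adds up to 1000000 TPM. A rise in abundant transcripts therefore lowers the share of all others. Differences are given as IFN-γ minus CX3CL1 in log2(TPM + 1), where the added 1 damps the change of weakly expressed genes, and positive values are higher with IFN-γ. Of 23636 symbols, 11878 averaged 0.2 TPM or more across the series and were tested with limma, and a gene was called at an adjusted p (Benjamini-Hochberg) under 0.05. With 3 libraries against 3, an exact two-sided permutation test of a single gene cannot reach a p below 0.1. The calls therefore depend on limma's pooling of variance between genes, and the p-values measure the spread between these cultures. In bulk RNA, fewer cells that express a gene and less of its RNA per cell cannot be told apart.

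The 6 libraries had between 10615 and 10811 symbols at 1 TPM or more. The correlation of log2(TPM + 1) across genes was 0.992 to 0.995 between IFN-γ replicates, 0.984 to 0.994 between CX3CL1 replicates, of which replicate 2 was the least alike, and 0.971 to 0.991 between an IFN-γ and a CX3CL1 library. Of the 10 mesenchymal markers on the list, all passed the filter and none was called. The epithelial markers were sparse in this carcinoma line: of 9, the keratins KRT18 and KRT20 passed the filter, and EPCAM and CLDN7 were listed at 0 in all 12 libraries. Of 15 leukocyte markers, 4 passed the filter and none was called, and the sum of the list ran from 10.7 to 23.5 TPM with IFN-γ and from 9.13 to 22.4 TPM with CX3CL1, most of it CD68. The transcript of the fractalkine receptor was near 0: CX3CR1 was at 0.0672, 0.0541 and 0.118 TPM in the IFN-γ libraries and 0.0137, 0.102 and 0.0698 TPM in the CX3CL1 libraries, below the filter, and was therefore not tested. CX3CL1 itself reached 0.0178 TPM at most in any library, and the receptor chains of IFN-γ were well expressed, with IFNGR1 at 23.6, 24.1 and 24.1 TPM with IFN-γ and 27.4, 28.6 and 24 TPM with CX3CL1.

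IFN-γ and CX3CL1 gave different levels of many transcripts in CT26 cells, and how the calls divided between the stimuli depended on the scaling. Of the 11878 genes tested, 418 (3.52%) were higher with IFN-γ and 126 (1.06%) were higher with CX3CL1, 544 (4.58%) in all. A difference of at least 1 was found for 135 of the former and 23 of the latter, and a difference of at least 2 for 47 and 3. In all 544 genes the 3 IFN-γ libraries lay entirely above or entirely below the 3 CX3CL1 libraries, which was also true of 26% of all genes tested (18.3% higher with IFN-γ and 7.74% higher with CX3CL1). Against no treatment 7.85% of the genes were called with IFN-γ (5.91% higher, 1.94% lower), 1.95% with CX3CL1 (1.78% higher, 0.168% lower) and 11.9% with IFN-γ + CX3CL1. The median difference over the genes tested was 0.05. Scaling each library by the median ratio of its genes, which takes this shift away, gave 305 genes higher with IFN-γ and 240 higher with CX3CL1, so the share of calls that were higher with IFN-γ was 76.8% without that scaling and 56% with it, and 54.1% after quantile normalization. A fit that blocked on the replicate number called 1222 genes (10.3%) higher with IFN-γ and 379 (3.19%) higher with CX3CL1, 13.5% in all, and these held all 544. The same block gave 803 and 748 with median-ratio scaling, and with quantile normalization 671 and 709, where the calls higher with CX3CL1 were the more numerous. The counts rested on single libraries: they were 205 and 69 without IFN-γ replicate 1, 259 and 71 without IFN-γ replicate 2, 136 and 49 without IFN-γ replicate 3, and 261 and 83 without CX3CL1 replicate 2. In all 6 fits that each left out 1 of the libraries compared, 121 of the 418 and 42 of the 126 kept their call.

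**Figure D1:**
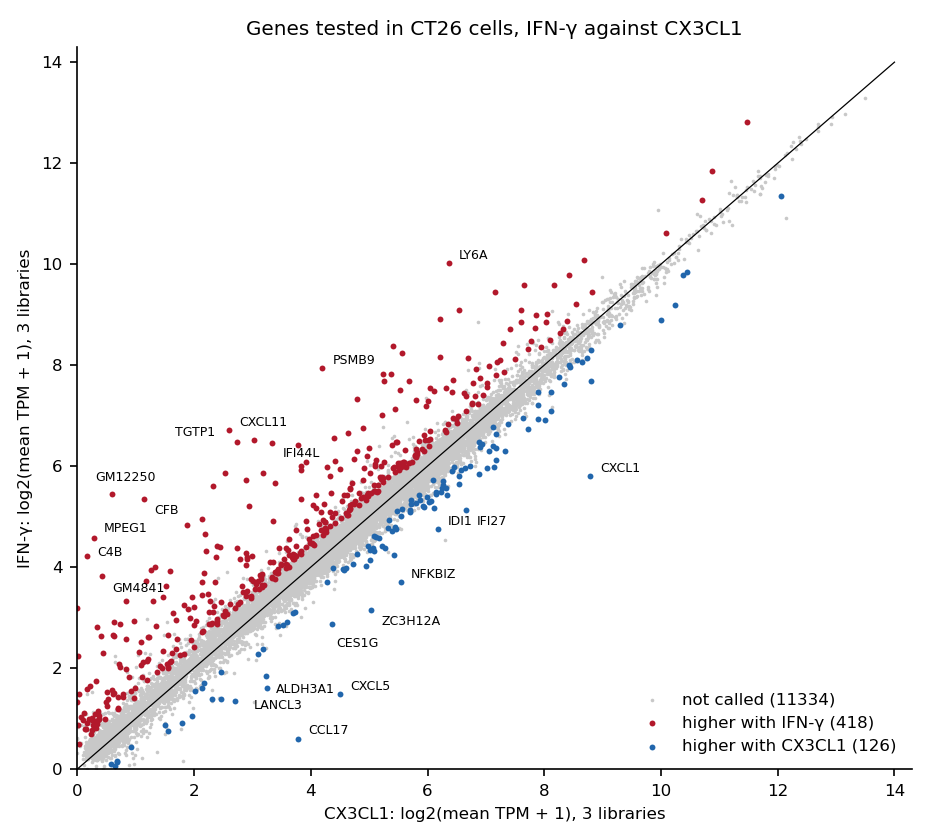
Level of each of the 11878 genes tested, as log2(mean TPM + 1) over the 3 CX3CL1 libraries (x axis) and the 3 IFN-γ libraries (y axis). Red points are the 418 genes called higher with IFN-γ, blue points the 126 called higher with CX3CL1, and grey points were not called. Named points are the 10 largest differences each way, and the line marks equal levels.

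The 10 largest differences in favour of IFN-γ were those of GM12250, CFB, MPEG1, CXCL11, C4B, PSMB9, LY6A, TGTP1, IFI44L and GM4841. GM12250, on chromosome 11 from 58187739 to 58189012, is the symbol of the immunity-related GTPase Irgb10, which acts on the membranes of intracellular microbes, and GENCODE classes the feature at that span as a processed pseudogene. It stood at 14.2, 20.5 and 93.7 TPM with IFN-γ and 0.531, 0.244 and 0.73 TPM with CX3CL1, a difference of 4.40 (SE 0.64, limma adjusted p = 0.0023). IFN-γ replicate 3 was the highest of these 6 libraries for GM12250 by far, and the difference stayed between 3.60 and 4.92 with each library left out. CFB, complement factor B of the alternative pathway, on chromosome 17 from 34856374 to 34862518, was at 56.6, 21 and 41.5 TPM against 1.29, 0.696 and 1.64 TPM, a difference of 4.12 (SE 0.39, limma adjusted p = 0.00016). C4B, complement component 4, went from 0.26, 0.0231 and 0.0946 TPM with CX3CL1 to 30.6, 6.54 and 15.7 TPM with IFN-γ, a difference of 3.82 (SE 0.50, limma adjusted p = 0.0012). MPEG1, the pore-forming protein perforin-2 that is best known from macrophages, was at 36.1, 8.38 and 24.3 TPM with IFN-γ and at 0.141, 0.117 and 0.384 TPM with CX3CL1 (difference 4.09, SE 0.50, limma adjusted p = 0.00082). Beside MPEG1, the defining leukocyte markers PTPRC and CSF1R reached at most 0.0441 and 0.0283 TPM in any library. The macrophage marker CD68 was at 19.7, 11.6 and 9.19 TPM with IFN-γ and 20, 9.45 and 7.95 TPM with CX3CL1, and these ranges overlapped. Of the 4 leukocyte markers tested, 2 had positive and 2 had negative differences, from -0.32 to 1.25. None was called, and 1 was without overlap, as were 26% of all genes tested. LY6A, the surface protein Sca-1, was the most abundant of the 10, with 1108, 762 and 1252 TPM in the IFN-γ libraries and 117, 49.7 and 76.5 TPM in the CX3CL1 libraries, so that its mean was 12.8 times higher with IFN-γ. In each of these 10 genes the libraries of the groups were far apart, and all 10 were called in all 6 fits that left out 1 library.

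**Figure D2:**
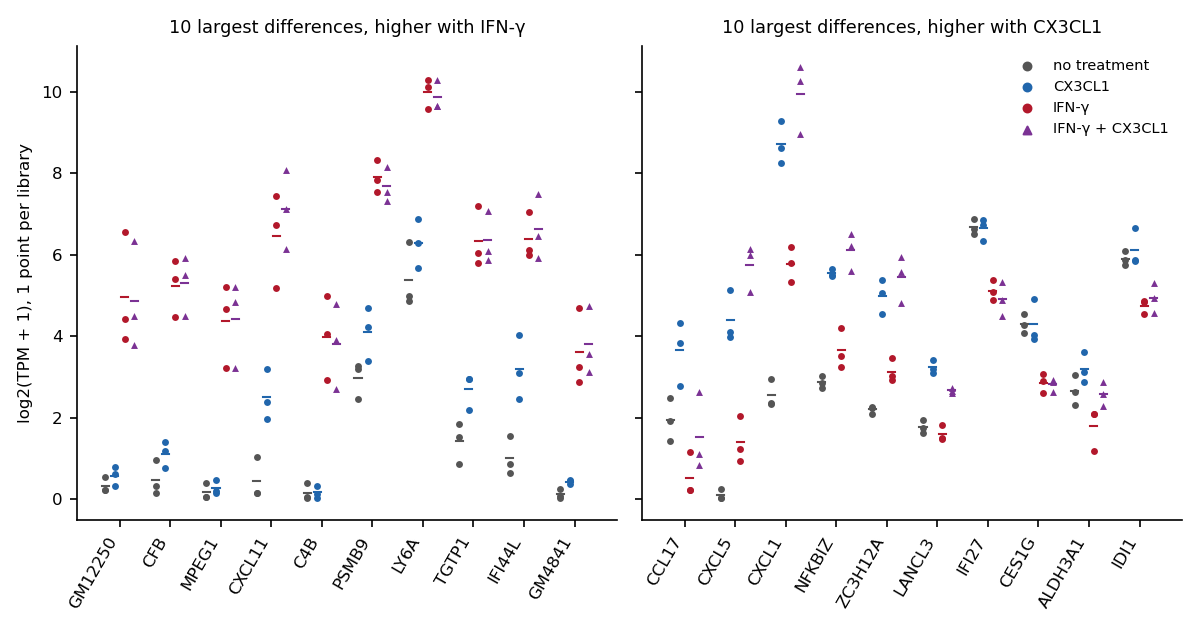
Level, as log2(TPM + 1), of the 10 genes with the largest differences each way, with 1 point for each library and a bar at the mean of 3 libraries. Grey is no treatment, blue CX3CL1, red IFN-γ and purple triangles IFN-γ + CX3CL1. In all 20 genes the 3 red points lie apart from the 3 blue ones.

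Transcription factors of the interferon pathway were higher with IFN-γ, while its receptors and kinases were not called. Of 16 genes for the IFN-γ receptor, JAK-STAT signaling and IRFs, 5 were higher with IFN-γ, where 3.52% of all genes tested were, and none with CX3CL1. The median difference was 0.27 against 0.05 over all genes tested. IRF1, on chromosome 11 from 53770014 to 53778374, was at 78.7, 77.6 and 166 TPM with IFN-γ and 29.2, 23.5 and 34 TPM with CX3CL1 (difference 1.78, SE 0.28, limma adjusted p = 0.0038). Against no treatment IRF1 differed by 2.31 with IFN-γ (adjusted p = 0.00015) and by 0.53 with CX3CL1 (adjusted p = 0.78). IRF7, the IRF that amplifies type I interferon genes, was at 672, 652 and 764 TPM against 159.7, 104 and 158 TPM, a mean 4.94 times higher with IFN-γ (adjusted p = 0.0073). BATF2, a basic leucine zipper factor, differed by 2.00 (adjusted p = 0.016), and STAT2 by 1.22 (adjusted p = 0.0074). The call of BATF2 was lost without IFN-γ replicate 3 (adjusted p = 0.058) or CX3CL1 replicate 2 (adjusted p = 0.066). IFNGR1 and JAK2 differed by -0.15 (95% interval -0.36 to 0.06) and -0.35 (95% interval -0.73 to 0.04). With the replicate block 8 of the 16 were higher with IFN-γ, where 10.3% of all genes tested were. Those gained were the feedback inhibitor SOCS1 (difference 0.72, adjusted p = 0.13, and 0.0041 with the block), STAT3 (adjusted p = 0.11 and 0.0073) and IRF9 (adjusted p = 0.12 and 0.041).

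The interferon-inducible GTPases, which coat the membranes around intracellular microbes, were higher with IFN-γ almost without exception. All 11 guanylate-binding proteins tested were higher with IFN-γ, by 1.37 to 3.14 with a median of 2.52, and so were 7 of the 8 immunity-related GTPases on the list, which does not hold GM12250, with a median of 2.01. Of all genes tested 3.52% were higher with IFN-γ. GBP2, on chromosome 3 from 142620602 to 142638008, was at 389.8, 311 and 734 TPM with IFN-γ and 75.9, 56.5 and 85.9 TPM with CX3CL1, a difference of 2.62 (SE 0.36, limma adjusted p = 0.0016). CX3CL1 also raised GBP2 over the untreated mean of 10 TPM, by 2.82 (adjusted p = 0.001), where IFN-γ raised it by 5.44 (adjusted p = 2.9e-06). The largest difference among the GBPs was that of GBP4, at 35.4, 25.9 and 81.9 TPM against 5.05, 2.65 and 4.4 TPM, and the smallest that of GBP8, at 2.52, 1.11 and 3.43 TPM against 0.372, 0.0816 and 0.287 TPM. GBP8 was not called without IFN-γ replicate 1 or 3 or CX3CL1 replicate 2 (adjusted p = 0.058, 0.072 and 0.062). Summed over the 11 genes, the GBPs took 1141 to 2599 TPM with IFN-γ and 232 to 334 TPM with CX3CL1. TGTP1, an immunity-related GTPase on chromosome 11 from 48985327 to 48994172, was at 54.4, 64.5 and 146 TPM with IFN-γ and 6.73, 3.53 and 6.74 TPM with CX3CL1 (difference 3.65, SE 0.40, limma adjusted p = 0.00045). IFI47 was the member not called, with 78.7, 90.7 and 183 TPM against 55.1, 29.6 and 63.1 TPM, a difference of 1.20 (adjusted p = 0.091, and 0.02 with the replicate block). Several of these genes have near-identical neighbours, among them TGTP1 and TGTP2, and GBP2 and GBP2B, and how reads shared by copies were counted is not given in the sources used here.

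Promoter sequence was read for these genes because GAS, ISRE and kB elements are the textbook binding sites of STATs, of the IRFs and of NF-kB. The promoters of the RefSeq table for GRCm38.p6 run from 250 bases before each start site to 50 after it, and 327 of the 418 genes higher with IFN-γ and 92 of the 126 higher with CX3CL1 matched an entry. The motifs were searched on both strands: for GAS the letters TTC and GAA with any 3 bases between them, for ISRE a pair of GAAA blocks with any 2 bases between them, and for kB the letters GGG and TTCC with any 3 bases between them. An ISRE was found in 13.8% of 407 promoters of the genes higher with IFN-γ, in 1.89% of 106 promoters of the genes higher with CX3CL1 and in 3.17% of 11802 promoters of all genes tested. For GAS the shares were 11.1%, 6.6% and 6.94%, and for kB 9.58%, 6.6% and 6.47%. Over all 32851 promoters of the table they were 3.44% for ISRE, 8.3% for GAS and 5.56% for kB. Of the promoters of genes higher with IFN-γ, 15 held both GAS and ISRE, and in 4 of these the 2 motifs shared bases. Below, the bases just before the start site are shown in the direction of transcription for 3 genes called higher with IFN-γ, for CXCL1, which was called higher with CX3CL1, and for CXCL10 and CXCL2, which were not called and are shown as relatives of CXCL11 and CXCL1, with every match to a motif in capitals.
GM12250: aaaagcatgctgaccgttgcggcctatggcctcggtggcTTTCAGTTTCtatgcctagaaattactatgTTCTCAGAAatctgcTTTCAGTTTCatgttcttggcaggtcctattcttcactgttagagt
TGTP1: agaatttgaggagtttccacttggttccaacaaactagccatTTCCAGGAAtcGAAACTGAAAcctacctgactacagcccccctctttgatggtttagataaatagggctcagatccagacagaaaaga
IRF1: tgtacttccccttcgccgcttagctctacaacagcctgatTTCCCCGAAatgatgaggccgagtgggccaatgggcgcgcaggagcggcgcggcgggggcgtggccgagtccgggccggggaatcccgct
CXCL10: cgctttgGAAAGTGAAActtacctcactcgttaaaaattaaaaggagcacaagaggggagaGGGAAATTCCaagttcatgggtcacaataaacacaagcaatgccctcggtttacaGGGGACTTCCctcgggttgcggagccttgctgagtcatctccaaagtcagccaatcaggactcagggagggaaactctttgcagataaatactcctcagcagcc
CXCL1: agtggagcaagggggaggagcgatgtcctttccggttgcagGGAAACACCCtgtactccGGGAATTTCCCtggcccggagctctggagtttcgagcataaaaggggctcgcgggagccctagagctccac
CXCL2: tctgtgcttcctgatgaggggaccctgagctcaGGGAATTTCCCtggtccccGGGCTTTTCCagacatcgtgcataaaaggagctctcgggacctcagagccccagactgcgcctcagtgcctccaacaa

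The stretch of GM12250 (chr11:58183713-58183842, plus strand) holds 2 ISRE matches that begin 91 and 46 bases before the start site, with a GAS match at 61. TGTP1 (chr11:48992247-48992376, minus strand) has its GAS match at 88 and its ISRE match at 77 bases before the start site, 2 bases apart, and IRF1 (chr11:53769884-53770013, plus strand) has a GAS match alone, at 90. Of the chemokines shown, CXCL1 (chr5:90891115-90891244, plus strand) and CXCL2 (chr5:90903769-90903898, plus strand) hold kB matches only. They begin at 89, 71 and 70 bases for CXCL1 and at 97, 96 and 78 for CXCL2, where neighbouring matches on opposite strands overlap. Other chemokines called higher with CX3CL1 and not shown differed: CCL17 had a GAS match at 99 bases and CCL9 a kB match at 35. CXCL10 (chr5:92348890-92349109, minus strand), a gene that rose with both stimuli, holds an ISRE match at 213 bases and kB matches at 159 and 104. Among the lists, the promoters of the GBPs held an ISRE in 5 of 6 and those of the immunity-related GTPases in 5 of 6. Over all genes tested the share was 3.17%. The CXCR2 ligands held a kB match in 3 of 4, where 6.47% of promoters of all genes tested did. The genes of cholesterol synthesis had neither GAS nor ISRE in 17 promoters. With shares of 6.94% and 3.17% over all genes tested, that is near the background. Gene spans are those of GENCODE and start sites those of RefSeq, so the stretch of GM12250 lies outside the span given for the gene above. A match is a description of the letters and says nothing of binding in these cells.

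Genes of antigen presentation by MHC class I were higher with IFN-γ, from the heavy chains to peptide loading. Of 20 genes for class I heavy chains, B2M and peptide loading, 15 were higher with IFN-γ, where 3.52% of all genes tested were. None was higher with CX3CL1, and the median difference was 1.29. B2M, the light chain of all class I molecules, on chromosome 2 from 122147686 to 122153083, was at 8146, 6083 and 7246 TPM with IFN-γ and 3347, 2796 and 2428 TPM with CX3CL1, a difference of 1.33 (SE 0.25, limma adjusted p = 0.0095). H2-K1, a classical class I heavy chain, was at 1203, 918 and 1122 TPM against 486, 299 and 446 TPM (adjusted p = 0.0013), and H2-D1 at 661, 459 and 523 TPM against 255, 128 and 200 TPM (adjusted p = 0.0046). The non-classical H2-T23, the Qa-1 molecule, had the largest difference of the list, 2.20 (SE 0.24, limma adjusted p = 0.00045). The whole list took 13174 to 16752 TPM with IFN-γ and 7574 to 9099 TPM with CX3CL1. TAPBP, the tapasin that holds class I molecules at the peptide transporter, was 3.84 times higher with IFN-γ, and TAP1, a subunit of that transporter, 3.3 times. TAP2, its partner subunit, was at 196, 98.6 and 189 TPM against 86.4, 30.9 and 69.3 TPM, with an adjusted p of 0.06, and 0.00018 with the replicate block. NLRC5, the transactivator of class I genes, was at 9.85, 10.5 and 20.8 TPM with IFN-γ and 4.23, 2.33 and 3.88 TPM with CX3CL1 (difference 1.67, adjusted p = 0.0099). CALR, a chaperone of the loading complex, was not called, with a difference of 0.26 (95% interval -0.16 to 0.68).

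All 6 genes of the immunoproteasome and its PA28 activator were higher with IFN-γ, where 3.52% of all genes tested were, with a median difference of 1.72. PSMB9, on chromosome 17 from 34181987 to 34187764, was at 225, 185 and 321 TPM with IFN-γ and 17.6, 9.43 and 24.9 TPM with CX3CL1, and its mean was 14.1 times higher with IFN-γ (difference 3.80, SE 0.33, limma adjusted p = 0.00015). PSMB8 was 6.18 times and PSMB10 3.94 times higher, and PSME1 and PSME2, the PA28 subunits, 2.58 and 2.68 times. The 3 catalytic subunits that these replace, PSMB5, PSMB6 and PSMB7, were not called, with differences from 0.11 to 0.19. Most genes of MHC class II, in contrast, stayed near 0: of 11 genes 2 passed the filter, H2-DMA and CD74. The master regulator of class II, CIITA, reached 0.0259 TPM at most. H2-DMA had a mean of 2.31 TPM with IFN-γ and 2.17 TPM with CX3CL1 and was not called. CD74, the invariant chain, was at 13.7, 1.23 and 5.44 TPM with IFN-γ and 2.83, 0.158 and 0.891 TPM with CX3CL1. Replicate 1 was the highest and replicate 2 the lowest in both groups, and the difference of 1.55 had an adjusted p of 0.21, and of 0.0011 with the replicate block.

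A minority of the antiviral interferon-stimulated genes was called higher with IFN-γ, and most of the list had also risen with CX3CL1 over no treatment. Of 49 such genes, 19 were higher with IFN-γ, where 3.52% of all genes tested were. None was higher with CX3CL1, 46 had a positive difference, and the median was 0.89. The 19 became 33 with the replicate block, which called 10.3% of all genes tested higher with IFN-γ, and 14 with median-ratio scaling. ZBP1, a sensor of Z-form nucleic acids, was at 315, 284 and 390.2 TPM with IFN-γ and 40.6, 26.4 and 57 TPM with CX3CL1, a difference of 3.02 (SE 0.35, limma adjusted p = 0.00061). MX1, an antiviral GTPase, was at 15.1, 27.5 and 47.6 TPM against 2.21, 2.13 and 5.8 TPM (difference 2.78, adjusted p = 0.0055), and IFIT3, which binds viral RNA with its relatives, at 130.1, 168 and 317 TPM against 41.3, 22.6 and 48 TPM (difference 2.39, adjusted p = 0.0065). CX3CL1 alone raised ZBP1 by 2.50 and IFIT3 by 2.61 over no treatment (limma adjusted p = 0.0017 and 0.0036). The rise of MX1 with CX3CL1, 1.52, was not called (adjusted p = 0.19). IFITM3, which blocks the entry of viruses, was abundant in both groups, at 3734, 3447 and 3798 TPM with IFN-γ and 2095, 1504 and 2028 TPM with CX3CL1 (difference 0.98, adjusted p = 0.011, and 0.054 without IFN-γ replicate 3). ISG15, a ubiquitin-like modifier, was not called: it was at 751, 813 and 1017 TPM with IFN-γ and 524, 320.5 and 684 TPM with CX3CL1 (difference 0.81, adjusted p = 0.092, and 0.028 with the block). Over the untreated mean of 109.9 TPM it rose by 2.95 with IFN-γ (adjusted p = 9.6e-06) and by 2.14 with CX3CL1 (adjusted p = 0.00058). IFIT1 rose by 3.42 with IFN-γ and by 2.27 with CX3CL1 over no treatment, and USP18, the protease that removes ISG15, by 3.20 and 2.42. Their direct differences, 1.15 and 0.79, had adjusted p = 0.054 and 0.14, and 0.0052 and 0.048 with the replicate block. IFIT1 was also called without IFN-γ replicate 1 (adjusted p = 0.033). For OAS3, an activator of RNase L, the rises were 2.13 and 1.63, and its direct difference was 0.49 (95% interval 0.17 to 0.81). The median difference of the 49 genes from no treatment was 2.36 with IFN-γ and 1.54 with CX3CL1. IFNB1, the type I interferon, was below 1 TPM in all 6 libraries, at 0.568, 0.941 and 0.93 TPM with IFN-γ and 0.199, 0 and 0.506 TPM with CX3CL1 (difference 0.57, adjusted p = 0.072, and 0.028 with the block).

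Some complement genes and checkpoint ligands were also higher with IFN-γ. Of 12 complement and acute-phase genes, 7 were higher with IFN-γ, where 3.52% of all genes tested were, and none with CX3CL1. The median was 1.69, with 1 negative difference, that of CP (ceruloplasmin, -0.74, adjusted p = 0.51). Beside CFB and C4B, the 7 genes were C1RA, C1RB, C1S1 and C1S2, proteases that start the classical pathway, and their inhibitor SERPING1. C4B passed the filter only through the cultures given IFN-γ, alone or with CX3CL1. C1S1 was at 233, 177 and 264 TPM with IFN-γ and 55, 31.5 and 34.4 TPM with CX3CL1 (difference 2.47, adjusted p = 0.00089), and SERPING1 at 5.74, 2.45 and 3.49 TPM against 0.404, 0.309 and 0.361 TPM (difference 1.79, adjusted p = 0.0024). C3, the central component, was called only with the replicate block (adjusted p = 0.33 without and 0.0035 with it), with 50.3, 13.1 and 20.1 TPM against 18.6, 8.29 and 10.6 TPM, and over no treatment it rose by 3.61 with IFN-γ (adjusted p = 0.00076) and 2.66 with CX3CL1 (adjusted p = 0.018). LCN2, the iron-scavenging lipocalin, varied widely among replicates, at 587, 42.4 and 98.9 TPM with IFN-γ and 215, 54.7 and 152 TPM with CX3CL1.

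Of 7 checkpoint ligands and tryptophan or arginine enzymes tested, 4 were higher with IFN-γ, where 3.52% of all genes tested were. CD274, which encodes PD-L1, on chromosome 19 from 29367455 to 29388095, was at 19.6, 20.4 and 68.1 TPM with IFN-γ and 6.12, 5.79 and 8.13 TPM with CX3CL1, a difference of 2.04 (SE 0.43, limma adjusted p = 0.019). IFN-γ replicate 3 was more than 3 times as high as the other IFN-γ libraries for CD274, and the call was lost without it (adjusted p = 0.052) and without CX3CL1 replicate 2 (adjusted p = 0.066), with the difference between 1.46 and 2.34 over the 6 fits that left out 1 library. Against the untreated mean of 3.08 TPM, CD274 rose by 2.97 with IFN-γ (adjusted p = 0.00066), and the difference with CX3CL1 was 0.93 (adjusted p = 0.62). IDO1, which breaks down tryptophan, was at 0.813, 0.405 and 1.25 TPM with IFN-γ, while it was listed at 0 in 2 CX3CL1 libraries and at 0.0233 TPM in the third. IDO1 passed the filter only through the cultures given IFN-γ, alone or with CX3CL1, so the filter itself favoured counting it among the 4. IDO2 was at 7.62, 7.03 and 14 TPM against 1.72, 1.71 and 1.85 TPM (difference 1.88, adjusted p = 0.00092). LGALS9, galectin-9, was 1.63 times higher with IFN-γ (adjusted p = 0.016). Without IFN-γ replicate 1, IFN-γ replicate 3 or CX3CL1 replicate 2, the adjusted p was 0.052, 0.066 and 0.05 for IDO1 and 0.072, 0.064 and 0.056 for LGALS9. The other 3 had negative differences and were not called. CD80, a costimulatory ligand, differed by -0.15 (95% interval -0.48 to 0.18) and PVR, the poliovirus receptor, by -0.12 (95% interval -0.63 to 0.39). NOS2, inducible nitric oxide synthase, overlapped between the groups, at 2.29, 0.318 and 1.07 TPM with IFN-γ and 3.69, 0.368 and 1.4 TPM with CX3CL1 (95% interval of the difference -1.59 to 1.07).

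Of 14 genes for inflammatory caspases and cell death, CASP1, CASP4, MLKL and IL18BP were higher with IFN-γ, where 3.52% of all genes tested were. IL18BP, the decoy that neutralizes IL-18, was at 13.6, 11.5 and 17.4 TPM with IFN-γ and 1.63, 1.39 and 2.96 TPM with CX3CL1 (difference 2.36, SE 0.21, limma adjusted p = 0.00015). CASP1 and CASP4, which process cytokines and cleave gasdermin D, differed by 0.84 (adjusted p = 0.026) and 1.29 (adjusted p = 0.032). Without IFN-γ replicate 1, IFN-γ replicate 3, CX3CL1 replicate 2 or CX3CL1 replicate 3, the adjusted p was 0.078, 0.12, 0.076 and 0.071 for CASP1 and 0.12, 0.12, 0.099 and 0.064 for CASP4, which also lost its call without CX3CL1 replicate 1 (0.054). MLKL, the effector of necroptosis, differed by 0.62 (adjusted p = 0.012, and 0.061 without IFN-γ replicate 3). NLRP3, the inflammasome sensor, was at 3.32, 1.49 and 3.03 TPM with IFN-γ and 3.2, 1.14 and 1.71 TPM with CX3CL1, and the groups overlapped (95% interval of the difference -0.49 to 1.04). Of the 4 receptor chains for IL-4 and IL-13, IL13RA1 and IL2RG were higher with IFN-γ, by 0.81 (adjusted p = 0.021) and 0.89 (adjusted p = 0.0086, and 0.051 without IFN-γ replicate 3). For IL13RA1 the adjusted p was 0.069 and 0.057 without IFN-γ replicates 1 and 3, and 0.052 and 0.062 without CX3CL1 replicates 2 and 3. The decoy chain IL13RA2 was at 3.88, 4.52 and 3.24 TPM with IFN-γ and 5.63, 4.74 and 3.98 TPM with CX3CL1 (95% interval of the difference -0.53 to 0.04).

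**Figure D3:**
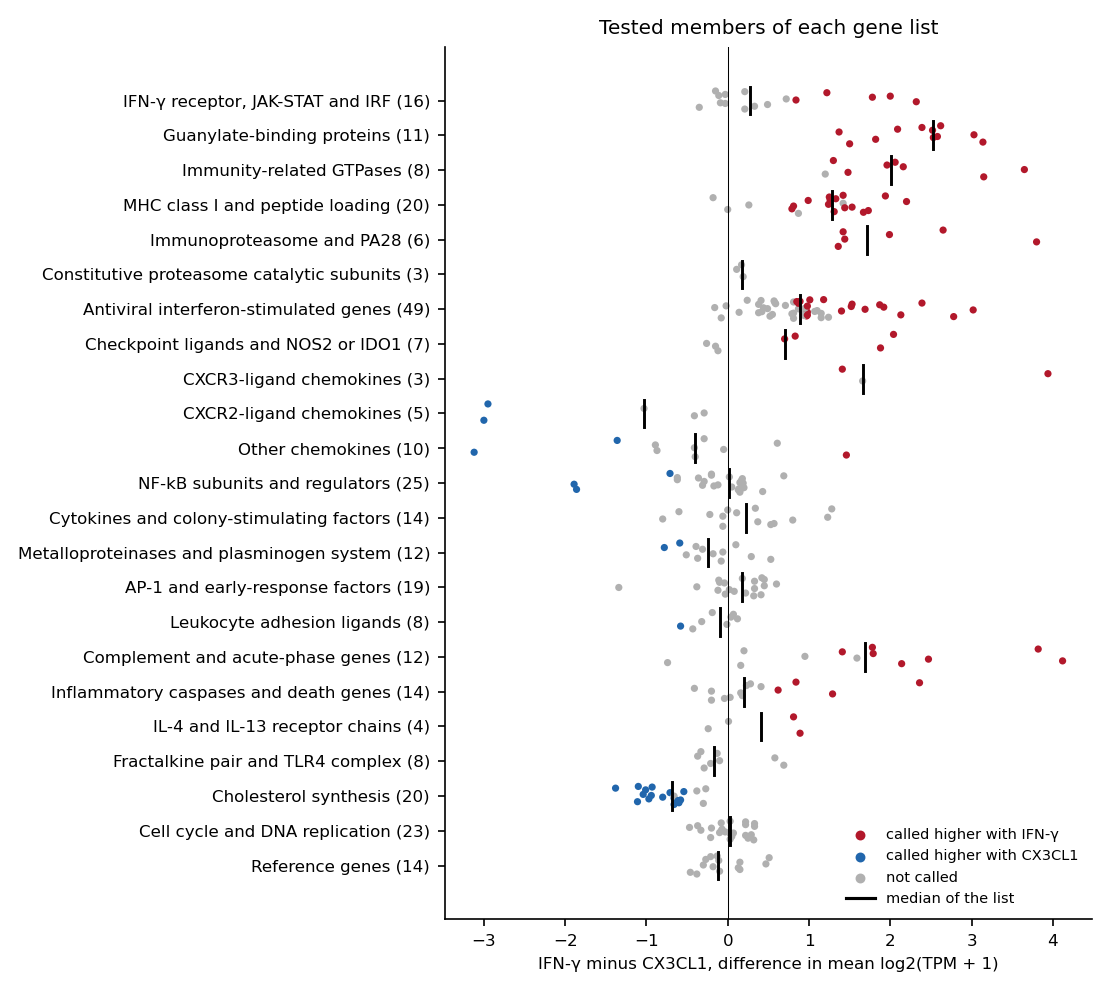
Difference between IFN-γ and CX3CL1 in mean log2(TPM + 1) for each tested member of 23 gene lists, with the number of tested members in brackets. Red members were called higher with IFN-γ, blue ones higher with CX3CL1, grey ones were not called, and black bars mark the median of a list. The GTPase members all lie to the right of 0, as do most of the class I and complement members, and all members of the CXCR2-ligand and cholesterol lists lie to the left.

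Chemokines differed in both directions, and the CXCR3 ligands and CCL5 were higher with IFN-γ where they were called. CXCL11, a CXCR3 ligand on chromosome 5 from 92359544 to 92365485 that GENCODE classes as a polymorphic pseudogene, was at 104, 35.5 and 172 TPM with IFN-γ and 4.19, 2.88 and 8.1 TPM with CX3CL1, a mean 20.5 times higher with IFN-γ (difference 3.94, SE 0.56, limma adjusted p = 0.002). CXCL9 was at 2.24, 0.845 and 2.36 TPM with IFN-γ and did not pass 0.0544 TPM with CX3CL1 (adjusted p = 0.0087, and 0.051 without IFN-γ replicate 3). It passed the filter only through the cultures given IFN-γ, alone or with CX3CL1. CXCL10 was at 199.5, 207 and 974 TPM with IFN-γ and 119, 64.3 and 163 TPM with CX3CL1. The high IFN-γ value was replicate 3 alone, the difference of 1.66 had an adjusted p of 0.15, and with the replicate block the adjusted p was 0.014. Over no treatment CXCL10 rose with each, by 4.76 with IFN-γ and 3.10 with CX3CL1 (adjusted p = 0.00027 and 0.018). CCL5, a chemokine of T cells, was at 59.6, 57.9 and 91.4 TPM with IFN-γ and 20.1, 17.6 and 39.5 TPM with CX3CL1 (difference 1.46, adjusted p = 0.018), and its call was lost without IFN-γ replicate 3 (adjusted p = 0.086), CX3CL1 replicate 1 (0.054) or CX3CL1 replicate 2 (0.073).

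The ligands of CXCR2 lay on the other side. CXCL1, on chromosome 5 from 90891241 to 90893115, was at 71.7, 39 and 54.5 TPM with IFN-γ and 620.3, 305 and 393 TPM with CX3CL1, a mean 7.99 times higher with CX3CL1 (difference -2.95, SE 0.38, limma adjusted p = 0.0011). CXCL1 rose over the untreated mean of 4.96 TPM with both stimuli, by 3.22 with IFN-γ (adjusted p = 0.00012) and by 6.17 with CX3CL1 (adjusted p = 6.9e-06). CXCL5 was at 3.1, 0.906 and 1.36 TPM with IFN-γ and 34, 16.1 and 14.9 TPM with CX3CL1 (difference -3.00, SE 0.35, limma adjusted p = 0.00061). CXCL3 was at 1.28, 1.08 and 2.6 TPM against 3.99, 3.25 and 5.9 TPM, with every CX3CL1 library above every IFN-γ library, as for 7.74% of all genes tested. Its difference of -1.03 had an adjusted p of 0.055, and of 0.0045 with the replicate block. CXCL2 was not called, at 0.294, 0.142 and 0.234 TPM with IFN-γ and 0.3, 0.97 and 0.655 TPM with CX3CL1 (difference -0.41, adjusted p = 0.32). All 5 CXCR2 ligands tested had a negative difference, with a median of -1.03, and together they took 42.7 to 77.9 TPM with IFN-γ and 328 to 661 TPM with CX3CL1. Since CXCL1, CXCL2 and CXCL3 are similar neighbours, reads may have been shared among them.

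Among 10 other chemokines tested, CCL17 and CCL9 were higher with CX3CL1, where 1.06% of all genes tested were. CCL17, a ligand of CCR4 on chromosome 8 from 94810453 to 94812036, had the largest difference of all genes higher with CX3CL1, with 19.1, 5.89 and 13.3 TPM against 1.22, 0.169 and 0.167 TPM with IFN-γ (difference -3.12, SE 0.48, limma adjusted p = 0.0035). Its untreated mean of 3.01 TPM lay between the groups, and neither difference from no treatment was called, at 1.71 with CX3CL1 (adjusted p = 0.13) and -1.41 with IFN-γ (adjusted p = 0.1). CCL9 was at 4.99, 5.68 and 5.77 TPM with CX3CL1 and 1.44, 1.76 and 1.38 TPM with IFN-γ (difference -1.36, adjusted p = 0.00016), and it fell with IFN-γ from an untreated mean of 5.1 TPM (difference -1.27, adjusted p = 3.3e-05). CCL20, a ligand of CCR6, was at 2.28, 3.09 and 5.08 TPM with IFN-γ and 10.1, 4.98 and 6.91 TPM with CX3CL1 (difference -0.89, adjusted p = 0.059, and 0.031 with the replicate block). The monocyte chemokines CCL2 and CCL7 were not called. CCL2, which acts through CCR2, was at 27.5, 10.6 and 27.8 TPM with IFN-γ and 44.1, 13.2 and 26.2 TPM with CX3CL1, and the 95% interval of its difference was -1.47 to 0.89. Over no treatment CCL2 rose by 3.36 with IFN-γ (adjusted p = 0.0017) and by 3.65 with CX3CL1 (adjusted p = 0.0026), and CCL7 by 2.24 and 2.64.

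Among NF-kB subunits and their regulators, 3 of 25 genes (12%) were higher with CX3CL1, where 1.06% of all genes tested were, and none with IFN-γ. The members of this list lay on both sides of 0, 13 positive and 12 negative, with a median of 0.02. Of the subunits NFKB1 was called, and NFKB2 (-0.31), REL (-0.36), RELA (0.13) and RELB (0.15) were not. NFKBIZ, the nuclear regulator IkB-zeta, on chromosome 16 from 55811375 to 55838899, was at 49.5, 44 and 43.3 TPM with CX3CL1 and 17.3, 8.45 and 10.4 TPM with IFN-γ (difference -1.89, SE 0.24, limma adjusted p = 0.0011). ZC3H12A, the RNase Regnase-1 that degrades cytokine messages, on chromosome 4 from 125118423 to 125127840, was at 40.4, 22.3 and 32.2 TPM against 10, 6.54 and 7.08 TPM (difference -1.86, SE 0.27, limma adjusted p = 0.002). NFKB1, the p105 precursor of p50, was at 155, 128 and 133 TPM with CX3CL1 and 83.1, 84.6 and 83.2 TPM with IFN-γ, with almost no spread among the IFN-γ libraries (difference -0.71, SE 0.10, limma adjusted p = 0.0014). Against no treatment NFKB1 rose by 0.93 with CX3CL1 (adjusted p = 0.00025) and differed by 0.21 with IFN-γ (adjusted p = 0.23). NFKBIA, the inhibitor IkB-alpha, had risen with both stimuli, by 2.05 with IFN-γ and 2.25 with CX3CL1, and it stood at 68.1, 57.2 and 91.6 and 114, 55.6 and 86.6 TPM (95% interval of the direct difference -0.86 to 0.45). RELB, a subunit of the alternative pathway, had risen by 1.82 and 1.67, with a direct difference of 0.15 (95% interval -0.33 to 0.62). With the replicate block 5 genes of the list were higher with CX3CL1, where 3.19% of all genes tested were. The additions were NFKBID (adjusted p = 0.13 without and 0.016 with the block) and MAP3K8 (0.086 and 0.011).

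**Figure D4:**
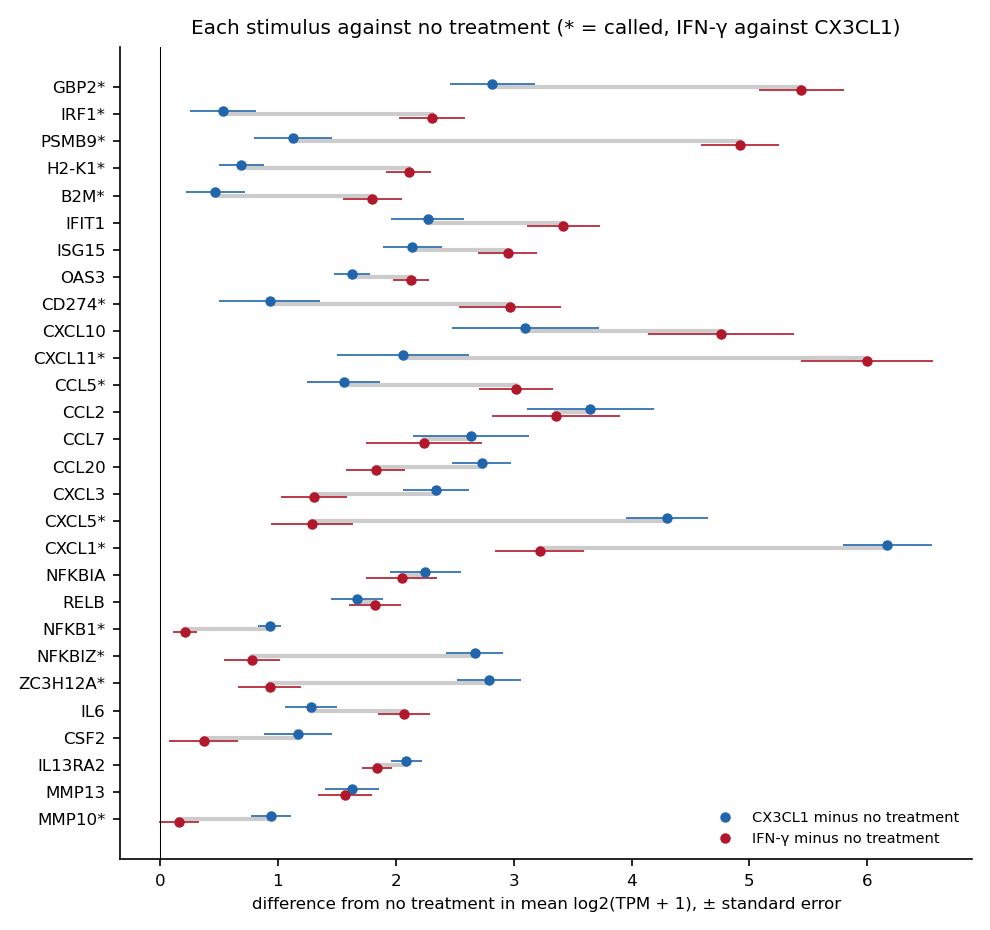
Difference of CX3CL1 (blue) and of IFN-γ (red) from no treatment in mean log2(TPM + 1) for 28 named genes, with standard errors from the limma fit as bars. Both differences use the same untreated libraries. Asterisks mark genes called between IFN-γ and CX3CL1. The points of CCL2, NFKBIA, RELB and MMP13 lie together, those of CXCL1, CXCL5, NFKBIZ and ZC3H12A are further right for CX3CL1, and those of PSMB9, CXCL11 and GBP2 further right for IFN-γ.

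No cytokine or colony-stimulating factor of 14 tested was called, and with the replicate block 5 were higher with IFN-γ, where 10.3% of all genes tested were. IL6 was at 4.39, 4.5 and 4.27 TPM with IFN-γ and 2.68, 1.67 and 2.03 TPM with CX3CL1, without overlap, a difference of 0.80 (SE 0.22, limma adjusted p = 0.061, and 0.021 with the block). Of all genes tested 18.3% were without overlap in this direction. IL15, a growth factor of NK cells and memory T cells, was at 8.56, 10.8 and 22.3 TPM against 4.92, 4.34 and 5.42 TPM (difference 1.23, adjusted p = 0.06, and 0.033 with the block). CSF2, or GM-CSF, lay in the other direction, at 0.419, 0.556 and 0.849 TPM with IFN-γ and 2.56, 1.35 and 1.58 TPM with CX3CL1. It was also without overlap, as were 7.74% of all genes tested in that direction, but its difference of -0.80 was not called (adjusted p = 0.14, and 0.07 with the block). LIF rose over no treatment by 1.12 with IFN-γ and 1.35 with CX3CL1, and its direct difference had a 95% interval of -0.77 to 0.33. Of 12 metalloproteinases and plasminogen genes, MMP3 and MMP10, both stromelysins, were higher with CX3CL1, at low levels, where 1.06% of all genes tested were higher. MMP10 was at 1.45, 1.92 and 2.44 TPM with CX3CL1 and 0.592, 0.909 and 0.59 TPM with IFN-γ (difference -0.78, SE 0.17, limma adjusted p = 0.019), and without IFN-γ replicates 1 and 3 or CX3CL1 replicates 2 and 3 its adjusted p was 0.074, 0.08, 0.056 and 0.063. MMP3 was at 0.755, 0.391 and 0.572 TPM with CX3CL1 and 0.0772, 0.0248 and 0.0245 TPM with IFN-γ (difference -0.59, adjusted p = 0.0059). It passed the filter only through the cultures given CX3CL1, alone or with IFN-γ. MMP13, a collagenase, rose over no treatment by 1.57 with IFN-γ (adjusted p = 0.00084) and 1.63 with CX3CL1 (adjusted p = 0.0021), and the groups overlapped at 7.62, 4.62 and 6.52 and 6.43, 4.94 and 8.38 TPM. With the block, 5 genes of this list were higher with CX3CL1 and 1 with IFN-γ, where 3.19% and 10.3% of all genes tested were. CD44, the hyaluronan receptor, was the 1 gene of 8 adhesion ligands that was called, at 447, 444 and 377 TPM with CX3CL1 and 274, 285 and 285 TPM with IFN-γ (difference -0.58, adjusted p = 0.011).

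Genes of cholesterol synthesis were higher with CX3CL1 than with IFN-γ. Of 20 genes on the list that were tested, 16 were higher with CX3CL1, where 1.06% of all genes tested were, and none with IFN-γ. All 20 differences were negative, and the median was -0.68. The count was 17 with median-ratio scaling, 16 with quantile normalization and 18 with the replicate block, which called 3.19% of all genes tested higher with CX3CL1. HMGCS1, which makes HMG-CoA, on chromosome 13 from 119690379 to 119708260, was at 120.3, 107 and 128 TPM with IFN-γ and 258, 291 and 220.2 TPM with CX3CL1 (difference -1.10, SE 0.16, limma adjusted p = 0.0023). IDI1, which isomerizes isopentenyl diphosphate, had the largest difference of the list, with 22.5, 27.4 and 27.9 TPM against 57.8, 99.7 and 56.2 TPM (difference -1.38, adjusted p = 0.0041). The later steps followed, with MSMO1 at -1.11, NSDHL at -1.04, CYP51 at -1.01 and SC5D at -0.97. Over the list the median difference from no treatment was 0.03 with CX3CL1 and -0.74 with IFN-γ. HMGCS1 differed from no treatment by 0.02 with CX3CL1 (adjusted p = 1) and by -1.08 with IFN-γ (adjusted p = 0.00082). Summed over the list, the genes took 1574 to 1798 TPM with IFN-γ, 2817 to 3009.9 TPM with CX3CL1 and 2469.6 to 3147 TPM without treatment. Among the members not called were MVK, INSIG1 (adjusted p = 0.056, 0.027 after median-ratio scaling and 0.0019 with the block) and SREBF2, the last being the transcription factor of the pathway, with a difference of -0.27 (95% interval -0.49 to -0.05).

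**Figure D5:**
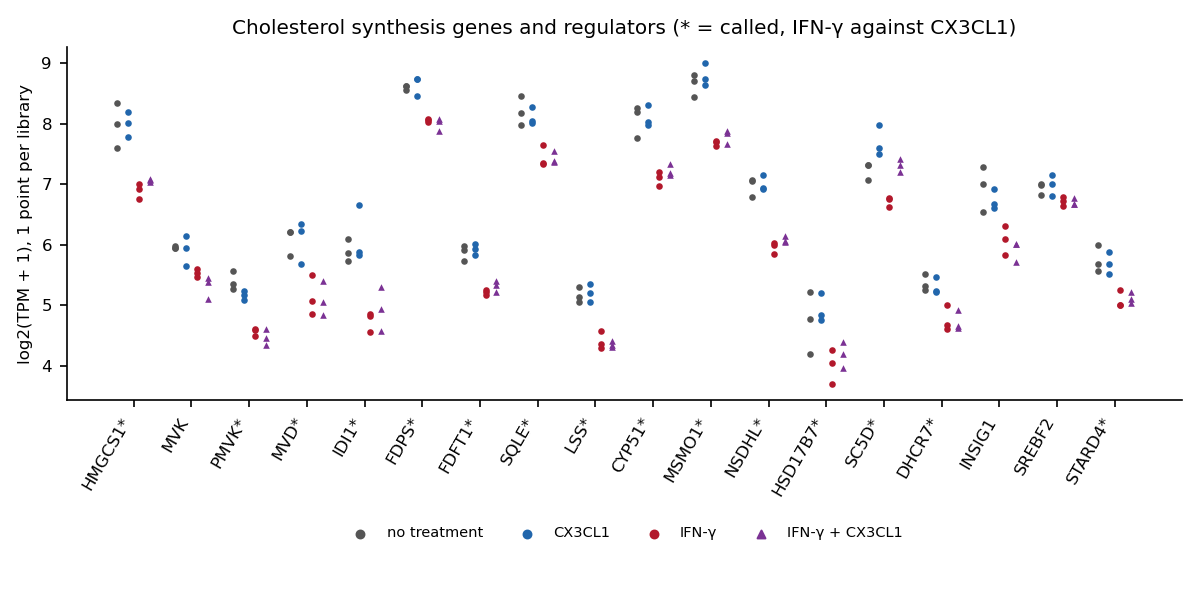
Level, as log2(TPM + 1), of 18 of the 20 tested genes of cholesterol synthesis and its regulation in the 12 libraries, with 1 point for each library. Asterisks mark genes called between IFN-γ and CX3CL1. In each marked gene the 3 red IFN-γ points lie below the 3 blue CX3CL1 points.

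The remaining genes of the 10 largest differences in favour of CX3CL1 were LANCL3, IFI27, CES1G and ALDH3A1. LANCL3 was at 7.54, 9.68 and 8.16 TPM with CX3CL1 and 1.82, 2.55 and 1.77 TPM with IFN-γ (difference -1.64, SE 0.13, limma adjusted p = 0.00014), and it rose with CX3CL1 from an untreated mean of 2.42 TPM (adjusted p = 0.00013). IFI27, named for its induction by type I interferon, was lower with IFN-γ: it was at 33, 40.4 and 28.4 TPM with IFN-γ, 115, 80.3 and 105 TPM with CX3CL1 and a mean of 101 TPM without treatment (adjusted p = 0.0013 between the stimuli and 0.00029 for IFN-γ against no treatment). CES1G, a carboxylesterase, had the same pattern, at 7.44, 6.43 and 5.04 TPM with IFN-γ, 29.2, 14.2 and 15.3 TPM with CX3CL1 and a mean of 18.8 TPM without treatment (difference -1.44, adjusted p = 0.0042). ALDH3A1, an aldehyde dehydrogenase, was at 3.24, 3.28 and 1.26 TPM with IFN-γ and 7.65, 11.2 and 6.29 TPM with CX3CL1 (difference -1.41, adjusted p = 0.013), and the call was lost without IFN-γ replicate 3 (adjusted p = 0.056) or CX3CL1 replicate 2 (adjusted p = 0.057).

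Taking each set of called genes as a whole, the 418 genes higher with IFN-γ had a median difference from no treatment of 0.77 with IFN-γ and 0.04 with CX3CL1. The 126 genes higher with CX3CL1 had medians of -0.54 with IFN-γ and 0.08 with CX3CL1. These differences share libraries with the direct comparison and are given side by side only. The cultures given IFN-γ + CX3CL1 and the untreated cultures share no library with it, but are not independent of it. The 12 libraries share an estimate of the spread, and same-numbered IFN-γ and IFN-γ + CX3CL1 libraries deviated together from their group means (r = 0.63, 0.635 and 0.649). The combined cultures also received each stimulus, so some overlap follows from the design. Between these groups 281 of the 418 genes (67.2%) were higher with IFN-γ + CX3CL1 than without treatment, where 8.21% of all genes tested were, and 1 was lower. Of the 126 genes higher with CX3CL1, 60 (47.6%) were lower with IFN-γ + CX3CL1, where 3.72% of all genes tested were, and 24 (19%) were higher. In the IFN-γ + CX3CL1 libraries PSMB9 was at 159, 185 and 285 TPM, beside a mean of 244 TPM with IFN-γ alone, and HMGCS1 at 134, 131 and 135 TPM, beside 119 TPM. CXCL1 was at 1551, 499.9 and 1218 TPM there, beside a mean of 439.5 TPM with CX3CL1 alone, and NFKBIZ at 89.9, 47.8 and 72.6 TPM, beside 45.6 TPM. CCL17 was at 5.22, 0.805 and 1.17 TPM with IFN-γ + CX3CL1, between its means of 0.52 TPM with IFN-γ and 12.8 TPM with CX3CL1.

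Genes of growth and of general use were not called. None of 23 cell cycle and DNA replication genes was called, with a median of 0.03, and none of 14 reference genes, with a median of -0.12 and differences up to 0.51 in size. With the replicate block 10.3% of all genes tested were higher with IFN-γ and 3.19% higher with CX3CL1. In that fit 3 of the cell cycle genes were higher with IFN-γ, and of the reference genes 2 were higher with IFN-γ and 1 with CX3CL1. None of 19 AP-1 and early-response factors was called either, and with the replicate block 5 were higher with IFN-γ and 1 with CX3CL1. CEBPD, an acute-phase transcription factor, had the largest difference of these, -1.34 (adjusted p = 0.11, and 0.021 with the block), with 38.7, 7.38 and 10.2 TPM with IFN-γ, of which replicate 1 lay within the range of the CX3CL1 libraries, and 46.5, 29.2 and 41.5 TPM with CX3CL1. Of the 8 genes tested for fractalkine shedding, its receptors and the TLR4 complex, none was called, and 1 was higher with IFN-γ with the replicate block, the adaptor MYD88 (difference 0.58, adjusted p = 0.065, and 0.015 with the block). TLR4 was at 11.1, 9 and 9.96 TPM with IFN-γ and 12.8, 13.9 and 10.9 TPM with CX3CL1. The proliferin PRL2C2, a prolactin relative, rose over no treatment by 3.81 with IFN-γ and 3.32 with CX3CL1, while its direct difference was 0.49 (95% interval -0.06 to 1.04).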

How the data were processed

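Per the study's methods, RNA of CT26 cultures was sequenced from strand-specific mRNA libraries, reads were aligned to mm10 and counted per gene with STAR 2.7.3a, and the authors used DESeq2 1.22.1 for their own tests. The authors deposited TPM values per gene symbol for 12 libraries. How reads that map to several genes were treated is not given in the sources used here, and counts were not analysed here. Groups followed the treatment labels. log2(TPM + 1) was fitted over all 12 libraries in 4 groups with limma 3.58.1 (R 4.3.3, intensity trend), for genes that averaged 0.2 TPM or more, and p-values were adjusted by Benjamini-Hochberg over all genes tested. The code was tested on simulated data. Same-numbered IFN-γ and CX3CL1 libraries deviated together from their group means (r = 0.584, 0.361 and 0.226 for replicates 1, 2 and 3), so the numbers were taken as pairs in a second fit with the replicate as a block. That block also covers the untreated libraries. Their r was 0.429, 0.46 and 0.22 with IFN-γ and 0.387, 0.00472 and 0.301 with CX3CL1, so replicate 2 was not paired in the last case. The table holds 26 symbols turned into dates and 2 duplicated names. Named genes were the 10 with the largest called difference each way and members of gene lists, with exceptions marked in the text. Some list members count in the totals and are not reported here by name. The comparison and the lists were chosen with earlier results of these data known. Other settings tried were the pseudocount, the filter, the scaling, the libraries in the fit, the trend, the size of the difference and leaving out each library. Promoters came from RefSeq (GRCm38.p6) and gene spans from GENCODE, read with pandas 2.3.3, and plots were drawn with matplotlib 3.10.9.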

Additional observations from a re-analysis of the deposited data

How the results depend on the processing

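The counts of genes higher with IFN-γ and higher with CX3CL1, 418 and 126, moved by more than 1.5 times in at least one direction under these settings: 305 and 240 when scaled by median ratio, 278 and 236 with quantile normalization, 194 and 58 with only the 6 libraries compared in the fit, 135 and 23 with a difference of at least 1 required, and 1222 and 379 with the replicate block. The replicate block together with median-ratio scaling gave 803 and 748, and with quantile normalization 671 and 709, both chosen after seeing the data. Leaving out 1 library at a time gave 136 to 361 and 49 to 118, and a fit without a library has fewer samples. For the other settings the cause was not tested. A pseudocount of 0.1, no filter on low TPM, a mean of at least 1 TPM and a fit without the intensity trend stayed within 1.5 times, at 329 to 425 and 93 to 130. Of the 128 named genes 80 were called, and 65 of these kept the call in every alternative they entered. The replicate block added calls as given beside those genes and changed no other call among the named genes. Quantile normalization added CCL20 (adjusted p = 0.034), CXCL3 (0.041), MAP3K8 (0.02) and NFKBID (0.045), with only the 6 libraries compared BATF2 (0.055) and IL13RA1 (0.063) lost and IL6 (0.031) gained a call, and without the filter on low TPM BATF2 (0.053), CASP1 (0.062), CASP4 (0.081), CCL5 (0.056) and CD274 (0.059) were not called. With 1 library left out, the difference changed sign for some genes that were not called, and ranged from -0.72 to 0.15 for CCL2, -0.78 to 0.09 for CCL7, -0.15 to 0.52 for CD68, -0.90 to 0.98 for LCN2, -0.23 to 0.11 for MMP13, -0.48 to 0.03 for NFKBIA, -0.69 to 0.20 for NOS2, -0.03 to 0.31 for PSMB5, -0.30 to 0.06 for PVR and -0.07 to 0.33 for RELB. TPM values keep no read depth, so the counting error of genes with low TPM is not known.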

Other observations

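Some of the larger differences belonged to genes of no list, and those named here were picked after their values were seen. LY6C1, a surface protein of the LY6 family like LY6A, was at 69.7, 33.2 and 52.4 TPM with IFN-γ and 6.59, 6.75 and 5.89 TPM with CX3CL1 (difference 2.77, SE 0.25, limma adjusted p = 0.00015), and MS4A4D was at 13.3, 2.62 and 8.46 TPM with IFN-γ and listed at 0 in all 3 CX3CL1 libraries (adjusted p = 0.0035). PHF11B was at 99.1, 50.1 and 105 TPM against 11.8, 10.7 and 15.8 TPM and IFI207, an IFI200-family gene with near-identical neighbours, at 50.5, 39.3 and 82.4 TPM against 8.72, 6.7 and 8.85 TPM. Both of these also rose with CX3CL1 over no treatment, by 1.91 (adjusted p = 0.011) and 1.50 (adjusted p = 0.023).

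Among the genes higher with CX3CL1, NDUFA4, a subunit of the respiratory chain, was at 521, 690 and 536 TPM with IFN-γ and 1036, 1200.3 and 1390.3 TPM with CX3CL1, with an untreated mean of 1284 TPM (difference -1.05, SE 0.19, limma adjusted p = 0.0086). A pair of lipid enzymes outside the cholesterol list, also picked after their values were seen, were higher with CX3CL1. ACAT2, which condenses acetyl-CoA ahead of the mevalonate steps, was at 81.3, 72.2 and 81 TPM against 167, 153 and 158 TPM (difference -1.02, adjusted p = 0.00014), and ELOVL6, which elongates fatty acids, at 40.7, 48.1 and 38.2 TPM against 73.4, 99.5 and 65.7 TPM (difference -0.88, adjusted p = 0.0055). CLDN6, a claudin of tight junctions, fell with each stimulus from an untreated mean of 250.3 TPM, to 147, 141 and 145 TPM with CX3CL1 (difference from no treatment -0.79, adjusted p = 0.0019) and 65.8, 71.6 and 67.3 TPM with IFN-γ (-1.86, adjusted p = 1.7e-06), and it was at 26.5, 36.1 and 29.8 TPM with IFN-γ + CX3CL1. ANXA1, annexin A1, was at 413, 568 and 446 TPM with IFN-γ and 1072, 1025 and 991 TPM with CX3CL1 (difference -1.12, adjusted p = 0.0028).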
